A study of Schizosaccharomyces pombe with 16 samples.

Results

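Among the transcribed units of fission yeast, 85 of 2540 (3.35%) had less RNA than the control in both rrp6Δ and red1Δ. A unit is a run of at least 6 neighbouring tiling probes of the same strand whose control signal, averaged over 16 arrays and smoothed by a running median of 5 probes, reached 7.89 on the log2 scale. The value of a unit on an array was the mean log2 ratio of mutant to control over its probes, centred on the mean of all units of that array. Units were taken when the mean over the 2 arrays was -0.7 or less in rrp6Δ and also in red1Δ, so the units were chosen by the ratios of these 2 mutants, which are described without a test. No file links a probe to a gene. Each unit is therefore named by the numbers of its first and last probe, and the level of the deleted genes themselves was not checked here.

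Rrp6 is an exonuclease of the nuclear exosome, which degrades cryptic unstable transcripts, aberrant pre-mRNAs and, in mitotic cells, meiotic mRNAs. Red1 is a zinc-finger protein that joins the helicase Mtl1 in the MTREC complex, which brings such RNAs to the exosome, together with the poly(A)-binding protein Pab2, the RNA-binding protein Rmn1, and Iss10, which links the complex to Mmi1, the protein that recognises meiotic mRNAs. Cid14 is the poly(A) polymerase of the TRAMP complex, another cofactor of the exosome, and Sen1 is an RNA and DNA helicase. RNAs degraded by this pathway rise when it fails, and lowered units are the opposite case.

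Total RNA of mutant and control cultures grown in YEA was depleted of rRNA and hybridized to 16 two-colour tiling arrays. rrp6Δ, red1Δ, pab2Δ, cid14Δ, iss10Δ and sen1Δ had 2 arrays each against wild type at 30 °C, mtl1-17, a temperature-sensitive strain moved from 23 °C to 37 °C for 4 h, had 2 arrays against mtl1-flag, rmn1Δ had 1 array against wild type, and mmi1Δ mei4-P572 had 1 array against mei4-P572. Whether the mtl1-flag control was moved to 37 °C is not stated. The mmi1Δ strain and its control share the mei4-P572 allele. The wild-type control of red1Δ, cid14Δ, iss10Δ and rmn1Δ is labelled as the same strain, and those of rrp6Δ, pab2Δ and sen1Δ as other strains. Mutant cDNA always carried Cy5 and control cDNA Cy3, and any preference of a probe for 1 dye therefore enters all ratios and drops out only between mutants. RNA came from whole cultures, in which fewer cells with an RNA and less of it per cell cannot be told apart.

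Of the 174063 tiling probes, control cDNA gave a signal well above background on 49.1% to 77.4% of them by array, and mutant cDNA on 49.99% to 84.7%. The arrays lay on 9 slides. The second arrays of rrp6Δ, red1Δ and pab2Δ shared 1 slide, and pab2Δ replicate 1, mtl1-17 replicate 2 and cid14Δ replicate 2 shared another. Slides were also shared by red1Δ replicate 1 and iss10Δ replicate 1, by mtl1-17 replicate 1 and iss10Δ replicate 2, and by cid14Δ replicate 1 and rmn1Δ. The number of arrays limits the precision.

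In rrp6Δ, the 85 units had a median log2 ratio of -1.30, which is 2.47-fold lower than the control, and spanned -4.41 to -0.72. In red1Δ the median was -1.25, or 2.38-fold lower, and the range -4.57 to -0.71. The spread between the 2 arrays of a unit had a median SD of 0.19 in rrp6Δ and 0.17 in red1Δ. All 85 units lay below 0 on each of the 4 arrays, and 77, 80, 81 and 79 of them lay at or below -0.7 on rrp6Δ replicates 1 and 2 and red1Δ replicates 1 and 2. The choice of units, made on the means of these arrays, largely fixes these counts. Units with a ratio of -0.7 or less numbered 271 in rrp6Δ and 198 in red1Δ, and 139 units had 0.7 or more in both mutants. Another 35 units had -0.7 or less in rrp6Δ but lay above 0 in red1Δ, and 41 were the reverse. Of the 85, 47 were lower in rrp6Δ and 38 in red1Δ, and in 11 of them the mutants differed by over 1 log2 unit. The heat map of single arrays shows these values beside those of the other mutants.

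**Figure D1:**
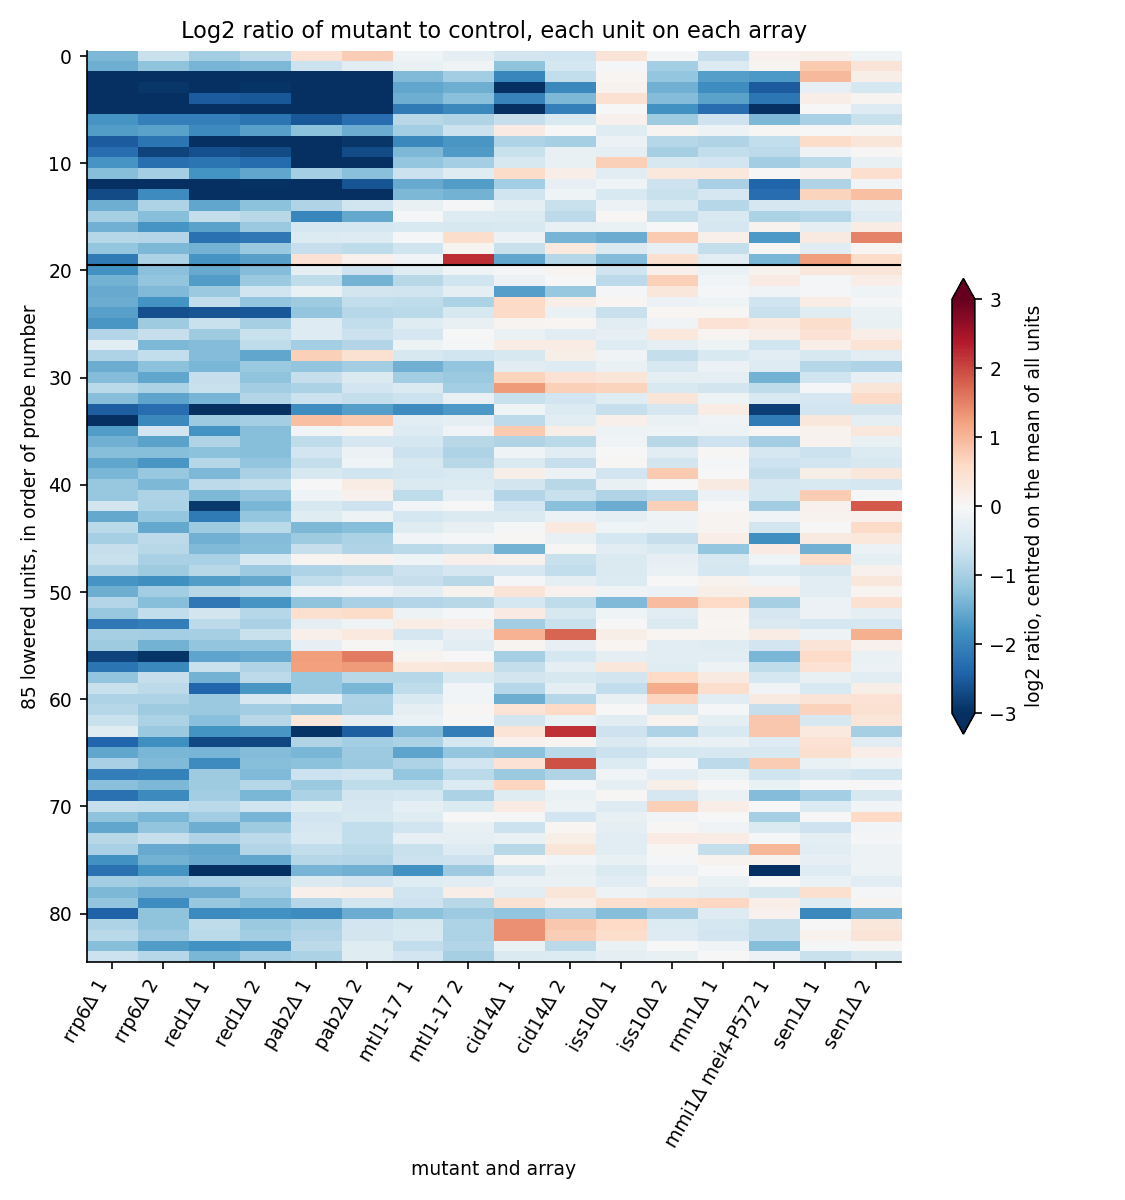
Log2 ratio of mutant to control (colour, from -3 to 3, centred on the mean of all units) of the 85 lowered units (vertical axis, in order of probe number, counted from 0) on each of the 16 arrays (horizontal axis). The line separates the 20 units with a first probe in 1 to 6000 from the other 65. The 4 leftmost columns, rrp6Δ and red1Δ, chose the units and are blue throughout; near the top the same units are also dark blue in pab2Δ.

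The unit with the lowest values was 2681-2729, of 25 probes. Its log2 ratio was -4.45 and -4.36 in rrp6Δ, -4.48 and -4.65 in red1Δ, -4.00 and -3.92 in pab2Δ, -2.12 and -1.93 in mtl1-17, and -4.00 in mmi1Δ mei4-P572. It was -3.80 and -2.06 in cid14Δ, -0.02 and -1.81 in iss10Δ, -2.29 in rmn1Δ, and 0.01 and -0.38 in sen1Δ. All arrays but the first of sen1Δ lay below 0, and the 2 arrays of cid14Δ and of iss10Δ differed by well over 1 log2 unit. Its log2 signal was between 8.90 and 9.64 in the control channel of the rrp6Δ and red1Δ arrays and more than 4 log2 units lower in the mutant channel of each, where 22.0% of its probe values were well above background. Such ratios are set partly by the background of the mutant channel.

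Many of the most lowered units lay together. The first probe of 20 of the 85 units lay in 1 to 6000, where 21.98% of the 91 units were members, against 2.65% of the 2449 units beyond. From probe 2381 to 3682 alone, 16 of 28 units were members. The ends of this stretch were chosen so that most of its units are members, and its share is therefore set by that choice. The boundary at 6000 was also drawn after the values were seen. The probe numbers belong to the high-resolution part of the array, which covers chromosome 2 and part of chromosome 3, but the files give no coordinates. Every other window of 10000 probes held between 1 and 9 members, as the plot along the array shows. The 20 units had a median of -1.78 in rrp6Δ and -2.15 in red1Δ, and the 65 others had -1.26 and -1.19. Ratios of -2 or less in both mutants were seen in 13 units, which are members by the choice of units.

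**Figure D2:**
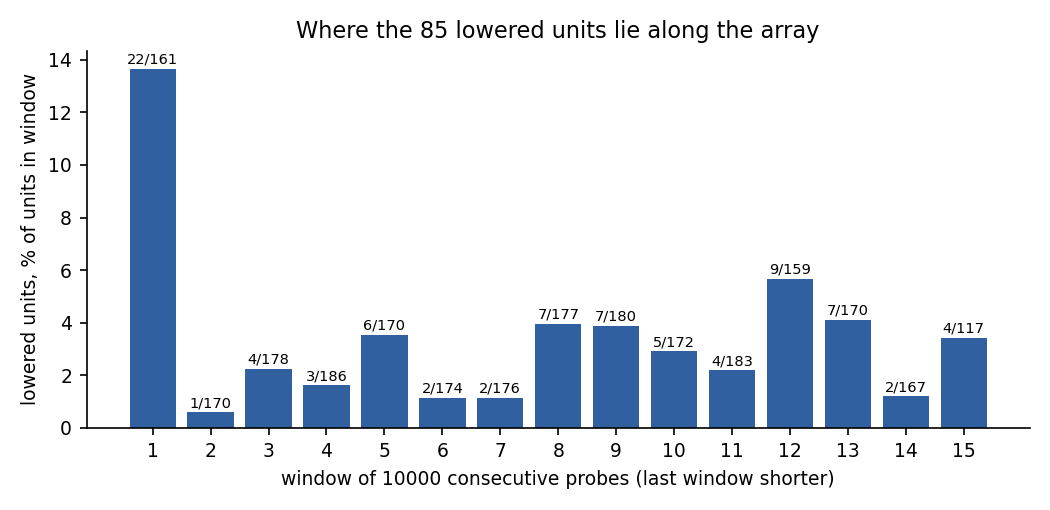
Share of units that are lowered (vertical axis, percent of the units of a window) in 15 windows along the probe numbers (horizontal axis, 10000 probes each, the last shorter), with the number of lowered units over the number of units above each bar. The first window holds 22 of 161 units, and the others between 1 of 170 and 9 of 159.

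Neighbouring units of this stretch lay on both strands. Unit 2523-2579 had -3.54 and -3.30 in rrp6Δ and -2.99 and -3.08 in red1Δ. Unit 2580-2636, on the other strand, had -3.21 and -2.92 in rrp6Δ and -3.11 and -2.94 in red1Δ, and unit 2621-2651, which overlaps it, had -3.69 and -3.08 in rrp6Δ and -2.49 and -2.54 in red1Δ. All ratios of these 3 units lay below -2 on both arrays of both mutants. Unit 3199-3219 was lower in red1Δ (-4.44 and -4.37) than in rrp6Δ (-2.50 and -2.20), and so was unit 3515-3537, with -4.04 and -3.96 in red1Δ and -2.69 and -1.90 in rrp6Δ. Unit 3202-3212 lies inside 3199-3219 on the other strand and had -2.53 in rrp6Δ and -2.66 in red1Δ as means. The arrays of the 2 mutants did not overlap in 3199-3219 and 3515-3537, but in red1Δ 18.2% and 41.7% of the probe values of these units were well above background, so the size of the difference is limited by the background. Unit 3452-3478 had means of -3.31 and -3.14.

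Outside this stretch, the lowest units were 43698-43708 and 123027-123049. Unit 43698-43708, of 6 probes, had -2.48 and -2.29 in rrp6Δ and -3.40 and -3.02 in red1Δ. Unit 123027-123049 had -2.24 and -1.78 in rrp6Δ and -3.13 and -3.20 in red1Δ. Both were lower on every red1Δ array than on any rrp6Δ array, with 33.3% and 29.2% of their probe values well above background in red1Δ.

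The lowering was not confined to dim units. The brightest member, 120868-120924, had a control log2 signal of 12.97 and log2 ratios of -0.98 and -1.50 in rrp6Δ and -1.57 and -0.88 in red1Δ. Its arrays of the 2 mutants overlapped. The next brightest, 27954-28034 (control 12.22) and 101532-101628 (control 11.93), had means of -0.78 and -0.93 in rrp6Δ and -0.87 and -0.81 in red1Δ. The longest member, 103652-103756, of 53 probes, had -0.86 and -1.06 in rrp6Δ and -1.12 and -1.04 in red1Δ. The 3 dimmest were 87676-87686, 72778-72788 and 118085-118113, with control signals of 7.73, 7.73 and 7.97 and mean ratios between -1.96 and -0.71.

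At the threshold of -0.7, the members just inside were 118085-118113, 87792-87836 and 100079-100125, whose higher ratio of the 2 mutants was -0.71, -0.71 and -0.72. The units just outside, 95811-95827, 29796-29852 and 81362-81382, had -0.70, -0.70 and -0.69. These steps are smaller than the median SD between arrays given above.

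In pab2Δ, which lacks the nuclear poly(A)-binding protein, most of the units were lowered too. Its replicate 2 shared a slide with the second arrays of rrp6Δ and red1Δ, which helped to choose the units. Of the 85, 53 were lower and 6 higher in limma's test at an adjusted p under 0.05 (Benjamini-Hochberg over 2540 units), where 8.39% of all units were lower and 13.6% higher. The median of the 85 was -0.71, against -0.08 over all units, and 72 lay below 0, where 58.35% of all units did. The 20 units with a first probe in 1 to 6000 had a median of -2.08 and the other 65 a median of -0.63, with 16 and 37 of them lower. Medians and calls over all units of each region are not given, so these values do not separate the members from other units there. Fewer calls were made from a single pab2Δ array, 28 without replicate 1 and 31 without replicate 2.

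In pab2Δ, unit 3515-3537 had -4.31 and -4.41 on the arrays, with a mean of -4.36 (SE 0.17) and an adjusted p of 2.6e-08. Unit 2580-2636 had -4.73 and -3.97 (mean -4.35, SE 0.32, adjusted p = 3.58e-06). Unit 2681-2729 had a mean of -3.96 (SE 0.38, adjusted p = 2.02e-05). The arrays of each of these units lay far below 0 and within 1 log2 unit of each other. In pab2Δ, 33.3%, 29.3% and 4.0% of their probe values were well above background, so the order of these 3 units is not read from the ratios. Away from this stretch, 43698-43708 had -1.88 and -1.65 (adjusted p = 3.58e-06), and the longest unit, 103652-103756, had -1.18 and -0.94 (adjusted p = 0.000171). The brightest, 120868-120924, had -0.73 and -0.82 (adjusted p = 0.0402), a call that was lost without either array of pab2Δ, mtl1-17 or sen1Δ.

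The units that were higher in pab2Δ included a neighbouring pair. Unit 95307-95319 had -2.77 and -2.95 in rrp6Δ and -1.59 and -1.50 in red1Δ, but 1.25 and 1.55 in pab2Δ (mean 1.40, SE 0.17, adjusted p = 9.92e-05). Unit 95323-95337, of the same strand and a few probes on, had -2.20 and -1.93 in rrp6Δ, -0.66 and -0.89 in red1Δ, and 1.24 and 1.29 in pab2Δ (mean 1.26, SE 0.19, adjusted p = 0.000383). The arrays of pab2Δ lay apart from those of the mutants that chose the units in both. Unit 44029-44055 had -3.41 and -1.94 in rrp6Δ, -1.09 and -1.02 in red1Δ, and 0.89 and 0.79 in pab2Δ (adjusted p = 0.0406). This last call was lost when either array of pab2Δ, mtl1-17 or red1Δ was left out. The others were 2381-2437, 34363-34373 and 87792-87836.

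**Figure D3:**
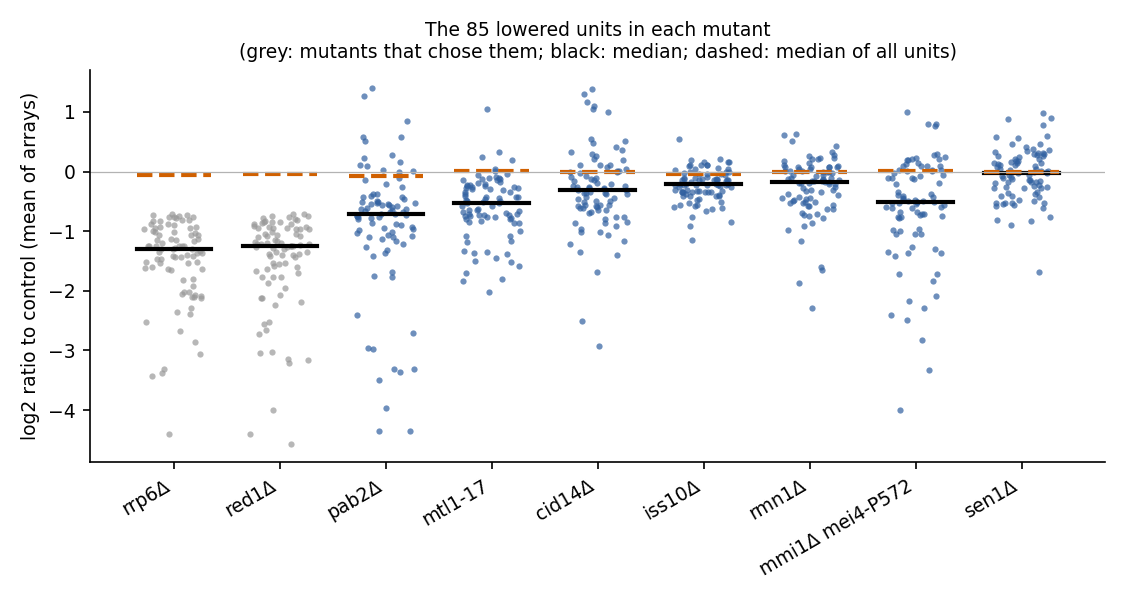
Log2 ratio of mutant to control (vertical axis, mean of the arrays of a mutant) of the 85 lowered units in each of 9 mutants (horizontal axis). Each point is a unit, black bars are medians over the 85 units and dashed bars medians over all 2540 units. Grey points are the mutants that chose the units; the medians of the others run from -0.71 in pab2Δ to -0.02 in sen1Δ.

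In mtl1-17, a temperature-sensitive allele of the MTREC helicase, 31 units were lower and none was higher by limma, where 3.39% of all units were lower and 2.99% higher. The median was -0.53, against 0.01 over all units, and 79 of the 85 lay below 0, where 48.15% of all units did. At an unadjusted p under 0.05, 49 units differed from 0. Counts at this unadjusted threshold, here and below, were not made over all units. Unit 2681-2729 had the lowest mean, -2.02 (SE 0.38, adjusted p = 0.00766). Unit 3199-3219 had -1.94 and -1.74 (mean -1.84, SE 0.19, adjusted p = 0.000231) and unit 43698-43708 had -1.88 and -1.72 (mean -1.80, SE 0.13, adjusted p = 1.61e-05). These 3 units were low on both arrays. Of the 31 units, 29 were lower in pab2Δ as well, which is 29 of the 53 units lower in pab2Δ, and 34.1% of the 85 units against 2.01% of all units. These 2 mutants had different control strains. Only 7 units were called without mtl1-17 replicate 1, and 7 without replicate 2, and the calls of 2681-2729 were lost in both cases.

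In cid14Δ, which lacks the TRAMP poly(A) polymerase, the units went both ways, with 18 lower and 7 higher by limma, where 6.69% of all units were lower and 7.91% higher. The median was -0.31, against -0.01 over all units. The control of cid14Δ, iss10Δ and rmn1Δ has the strain label of the red1Δ control. Their counts and medians may therefore share control RNA with the red1Δ ratios that chose the units. The lowest were again of the stretch described above. Unit 2681-2729 had -3.80 and -2.06 (mean -2.93, SE 0.38, adjusted p = 0.000669), unit 2580-2636 had -3.09 and -1.94 (mean -2.51, SE 0.32, adjusted p = 0.000585), and unit 2621-2651 had -2.01 and -1.35 (mean -1.68, SE 0.31, adjusted p = 0.00457). In all 3, replicate 1 was the lower array, and without it the call of 2621-2651 was lost, at -1.35. The bright unit 101532-101628 had -1.47 and -0.86 (adjusted p = 0.00623), a call that was lost without replicate 1, when the value was -0.86. Over the members, 9 calls were made without cid14Δ replicate 1 and 14 without replicate 2.

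The units that were higher in cid14Δ were 91141-91151, 110803-110827, 113580-113618, 103652-103756, 40595-40645, 140801-140851 and 142388-142434. Unit 91141-91151 had -0.99 and -1.03 in rrp6Δ, -1.01 and -0.68 in red1Δ, and 1.04 and 1.74 in cid14Δ (mean 1.39, SE 0.23, adjusted p = 0.00284). Unit 110803-110827 had 0.41 and 2.19 in cid14Δ (mean 1.30, adjusted p = 0.0371) and 113580-113618 had 0.44 and 1.91 (mean 1.17, adjusted p = 0.013). The arrays of the last 2 units differed by over 1 log2 unit, and without cid14Δ replicate 2 their values were 0.41 and 0.44 and were not called. The call of 91141-91151 was lost without replicate 2 as well, at 1.04, and that of 110803-110827 also without either array of red1Δ or pab2Δ, where its value stayed at 1.30. The call of 103652-103756 was lost without either array of cid14Δ, at 0.60 and 0.42.

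Units 40595-40645, 140801-140851 and 142388-142434 lie far apart but had nearly the same values on each array, the largest difference between any pair on any of the 16 being 0.25. In cid14Δ they had 1.28 and 0.71, 1.38 and 0.82, and 1.37 and 0.73. In pab2Δ they had -0.96 and -0.58, -0.94 and -0.58, and -0.89 and -0.55. They were 24 to 26 probes long, and their control signals lay between 9.56 and 9.73. The files hold no probe sequence, so whether probes of these 3 units match the same RNA was not tested, and the 3 units may not be independent.

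A difference between mutants does not contain a dye bias that is common to the arrays. Such a difference does contain that between the control strains, because pab2Δ, mtl1-17 and sen1Δ had other control strains than cid14Δ. The mtl1-17 cultures were also kept at other temperatures than those of cid14Δ. These parts cannot be told apart from the effect of the mutants. Against cid14Δ, 32 of the 85 units were lower in pab2Δ and 7 were higher by limma, where 7.44% of all units were lower and 8.82% higher, and the median difference was -0.48 against -0.02 over all units. On the slide that held an array of both, pab2Δ replicate 1 and cid14Δ replicate 2, the median difference was -0.56, against 0.004 over all units. There the difference lay below 0 in 66 of the 85 units, a count of signs without a test, whose share over all units is not given. Without pab2Δ replicate 1, 22 units were called in place of 39. For mtl1-17 against cid14Δ, 15 units were lower and 2 higher, where 3.74% of all units were lower and 2.40% higher. The median difference was -0.24, against 0.04 over all units. On the shared slide it was -0.27, also against 0.04. There the difference lay below 0 in 56 of the 85 units, again a count of signs without a share over all units. The number of calls was 8 without mtl1-17 replicate 1, 4 without mtl1-17 replicate 2 and 6 without cid14Δ replicate 1, in place of 17.

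**Figure D4:**
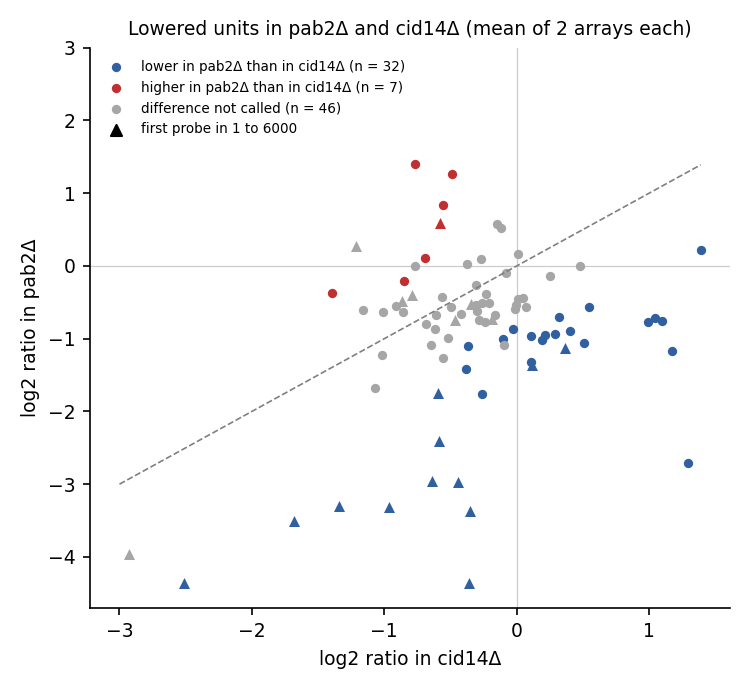
Log2 ratio in pab2Δ (vertical axis) against that in cid14Δ (horizontal axis) for the 85 lowered units, each the mean of 2 arrays. Blue points (32) were lower and red points (7) higher in pab2Δ than in cid14Δ by limma, grey points (46) were not called, triangles have a first probe in 1 to 6000 and the dashed line marks equal ratios. The blue triangles reach below -4 in pab2Δ, and all red points lie below 0 in cid14Δ.

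Unit 3515-3537 had the smallest adjusted p among the named units for the difference between pab2Δ and cid14Δ. It had -4.31 and -4.41 in pab2Δ and -0.60 and -0.12 in cid14Δ, a difference of -4.00 (SE 0.25, adjusted p = 4.04e-06). Unit 110803-110827 had -2.95 and -2.46 in pab2Δ, -1.33 and -2.06 in mtl1-17, and 0.41 and 2.19 in cid14Δ, a difference of -4.00 between pab2Δ and cid14Δ with a wider error (SE 0.53, adjusted p = 0.00048). In pab2Δ, 33.3% and 42.3% of the probe values of these units were well above background. In the opposite direction, 95307-95319 had -0.998 and -0.53 in cid14Δ and was higher in pab2Δ by 2.17 (SE 0.24, adjusted p = 0.000264). In none of these 3 units did the arrays of pab2Δ and cid14Δ overlap. In total, 6 units (7.06%, against 0.866% of all units) were lower in pab2Δ and higher in cid14Δ, and 2 (2.35%, against 0.551%) were the reverse. The 6 include 40595-40645, 140801-140851 and 142388-142434, which had nearly the same values on each array and may not be independent. Their share may therefore count the same signal more than once.

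In iss10Δ and rmn1Δ, few of the units were called. In iss10Δ, 3 units were lower and none higher by limma, where 0.157% of all units were lower and 1.22% higher, and 14 differed from 0 at an unadjusted p under 0.05. The median was -0.21, against -0.03 over all units, and 69 of the 85 lay below 0, where 57.91% of all units did. The 3 units were 134692-134712 (-1.29 and -1.005, adjusted p = 0.028), 72656-72668 (-0.89 and -0.78, adjusted p = 0.034) and 74504-74520 (-0.53 and -0.69, adjusted p = 0.021). Each was low on both arrays. The first call was lost without iss10Δ replicate 1, the second without either iss10Δ array or either of rrp6Δ, red1Δ or pab2Δ, and the third without iss10Δ replicate 2, with values of -1.01, between -0.89 and -0.78, and -0.53. Over the members, 10 calls were made without iss10Δ replicate 1. In rmn1Δ, with 1 array assumed to vary like the others, no unit was called by limma in either direction, where 0.0394% of all units were lower and 0.512% higher, and 16 had an unadjusted p under 0.05. The median was -0.18, against -0.01 over all units, and 59 of the 85 lay below 0, where 51.93% of all units did. Up to 4 units were called in rmn1Δ when an array of iss10Δ was left out, and 1 without either array of cid14Δ. Against cid14Δ, iss10Δ had 4 units higher and none lower, where 1.50% and 1.61% of all units were, and the count fell to 1 without either array of rrp6Δ, red1Δ, pab2Δ or mtl1-17, fell to 2 without either array of cid14Δ, and rose to 10 and 7 without replicates 1 and 2 of iss10Δ.

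On the mmi1Δ mei4-P572 array, the median of the units was -0.50, against 0.00 over all units. By limma, 17 units were lower and none was higher, where 3.03% of all units were lower and 1.81% higher, and 39 had an unadjusted p under 0.05. With 1 array, its error was taken wholly from the other mutants, and the calls have no replicate check. The lowest values were those of 2681-2729 at -4.00, 123027-123049 at -3.33 and 43698-43708 at -2.82, and in each of them at most 33.3% of the probes were well above background in the mutant channel. Unit 123027-123049 was lower here than in pab2Δ (-1.38 and -1.45) or mtl1-17 (-1.81 and -1.10), a difference that was not tested. Unit 3199-3219, which was near the lowest in red1Δ, had -0.74 and was not called.

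In sen1Δ, the units were not shifted as a group, with a median of -0.02 against -0.01 over all units. Of the 85, 45 lay below 0, where 51.1% of all units did. By limma, 10 were lower and 2 higher, where 5.31% of all units were lower and 6.65% higher. The split was 20 lower and none higher when the arrays were centred on the median of all tiling probes, which moved the median of all units in sen1Δ by -0.27. It was 4 lower and 1 higher with normexp and loess and 5 lower and 1 higher with normexp and the array median. Shares of all units called under such other settings are not given, here and below, so these splits have no background beside them. Unit 134692-134712 had -1.94 and -1.43 (mean -1.69, SE 0.23, adjusted p = 0.00124), 34657-34671 had -0.87 and -0.94 (adjusted p = 0.00131) and 3080-3110 had -0.98 and -0.67 (adjusted p = 0.03). The units that were higher were 3515-3537, with 0.66 and 0.89 (adjusted p = 0.0175), and the longest unit, 103652-103756, with 0.70 and 0.47 (adjusted p = 0.0218). Without sen1Δ replicate 1, 2 units were called, and without replicate 2, 7. The calls of 3515-3537 and 3080-3110 were lost in both cases, and those of 134692-134712 (at -1.43) and 103652-103756 (at 0.47) without replicate 1.

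Against cid14Δ, 2 units were lower in sen1Δ and 12 higher, where 3.70% of all units were lower and 4.17% higher, and the median difference was 0.16. This split was 8 and 9 with the arrays centred on the median of all tiling probes, and 0 and 10 with normexp. Unit 2681-2729, at 0.01 and -0.38 in sen1Δ, differed most, by 2.75 (SE 0.54, adjusted p = 0.0117), a call that was lost without cid14Δ replicate 1 (1.88) or sen1Δ replicate 1 (2.55). Without cid14Δ replicate 1, 3 units were called, and without sen1Δ replicate 1, 1 unit.

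Of the 85 units, 22 (25.9%) were lower in none of the other 5 mutants with 2 arrays, against 81.5% of all units. Of these, 17 were called in neither direction in any of the 5, against 1561 of the 2540 units. A single unit of the array, 134692-134712, was lower in all 5. It had -2.43 and -1.21 in rrp6Δ, -1.92 and -1.82 in red1Δ, -1.88 and -1.48 in pab2Δ, -1.22 and -1.09 in mtl1-17, and -1.18 and -0.96 in cid14Δ, besides the values of iss10Δ and sen1Δ given above. It had -0.39 in rmn1Δ and 0.14 in mmi1Δ mei4-P572. All arrays but that of mmi1Δ mei4-P572 lay below 0. Its call was lost in mtl1-17 and in cid14Δ without either array of that mutant, besides the losses named for iss10Δ and sen1Δ. As cid14Δ and iss10Δ were hybridized against the control strain that red1Δ had, and whether the extract was the same is not stated, these 3 comparisons may share control RNA.

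**Figure D5:**
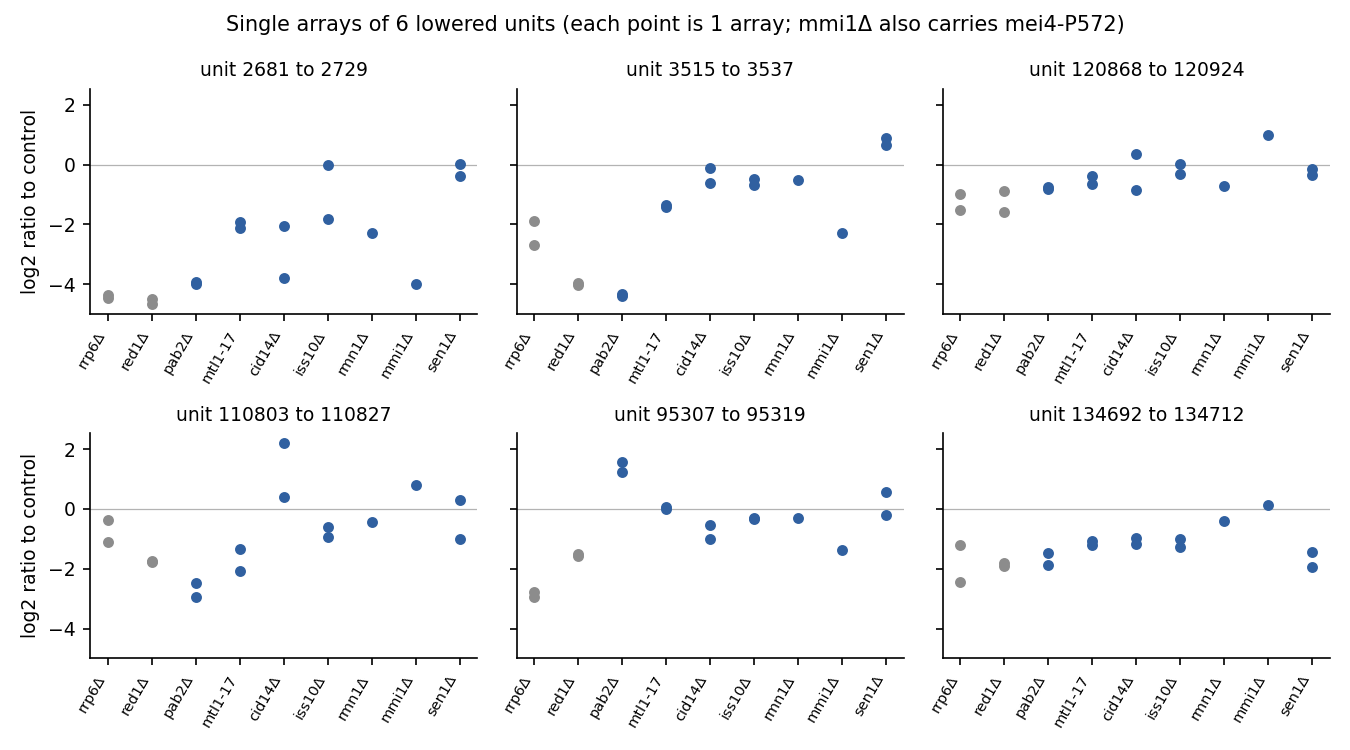
Log2 ratio of mutant to control (vertical axis) of 6 lowered units on each array of the 9 mutants (horizontal axis), 1 point an array, with grey points for the mutants that chose the units. Units 2681-2729 and 3515-3537 reach below -4 in pab2Δ, 95307-95319 lies above 1 there, 110803-110827 lies above 0 in cid14Δ, and 134692-134712 lies below 0 on all arrays but that of mmi1Δ mei4-P572.

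The probes of the other strand inside the units were lower in some units and higher in others. The choice of units did not use them, except in 2580-2636, 2621-2651, 3199-3219, 3202-3212, 40590-40604 and 40595-40645, each of which overlaps another of the 85 on the other strand. In rrp6Δ their median over the 85 units was 0.05, against 0.25 over all units, and in red1Δ -0.15 against -0.07, values from the arrays that chose the units and given without a test. In pab2Δ, 36 units were lower and 19 higher on the other strand by limma, where 30.9% of all units were lower and 22.7% higher. In mtl1-17, 22 were lower and 19 higher, where 9.09% and 23.2% of all units were. In cid14Δ, 20 were lower and 24 higher, where 18.6% and 14.6% were. The counts fell to 33 and 36, to 17 and 20, and to 20 and 22 when an array of the same mutant was left out.

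In sen1Δ, 1 unit was lower and 16 higher on the other strand, where 2.56% of all units were lower and 23.1% higher, a split that was 2 and 6 without centring and 0 and 4 with normexp and loess. From a single sen1Δ array 5 and 4 units were called. On the mmi1Δ mei4-P572 array, 4 were lower and 7 higher, where 1.93% and 3.90% were, with 2 and 9 by normexp and loess and 17 in all without either array of iss10Δ. In iss10Δ, none was lower and 3 higher, where 0.0787% and 0.551% were (5 without iss10Δ replicate 1, 1 without replicate 2). In rmn1Δ none was called, where 0.0787% and 0.512% were, with 19 units at an unadjusted p under 0.05 and up to 5 calls when an array of iss10Δ was left out.

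The strands of some units moved in opposite directions. Unit 43698-43708, lowered on its own strand in pab2Δ, had 3.54 and 3.94 on the other strand in rrp6Δ, 3.50 and 3.69 in red1Δ, 3.54 and 3.09 in pab2Δ (mean 3.31, SE 0.18, adjusted p = 2.37e-08), and 4.72 in mmi1Δ mei4-P572. The other strand was also higher in mtl1-17 (1.82, adjusted p = 5.91e-06), cid14Δ (1.55, adjusted p = 4.37e-05) and iss10Δ (1.06, adjusted p = 0.02), and was 0.26 in rmn1Δ and 0.28 in sen1Δ. Every array but the second of sen1Δ lay above 0. Unit 134692-134712 had 1.79 and 1.43 on the other strand in pab2Δ (adjusted p = 1.41e-06) and 1.63 and 1.59 in sen1Δ (adjusted p = 1.24e-05), and unit 8700-8712 had 1.63 and 1.41 in pab2Δ (adjusted p = 5.93e-05). In contrast, both strands of the pair 3199-3219 and 3202-3212 were low. The probes of the other strand inside 3202-3212 all belong to 3199-3219, and those inside 3199-3219 belong in part to 3202-3212. The choice of units therefore used them, and the 2 values are not independent.

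The lowered units were shorter and dimmer than units in general, as a description. Their median length was 14 probes of the strand, against 20, and 28 of the 85 (32.9%) were 6 to 9 probes long, against 17.0% of all units. The median control log2 signal was 9.24, against 10.06. The units were further from neighbours, with 27 (31.8%) within 10 probes of a unit of the same strand against 54.1% of all units, and 38 (44.7%) overlapped a unit of the other strand against 40.1%. In 12 of them (14.1%, against 7.76%) the control signal of the other strand was above that of the unit.

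Along the units, every probe lay below 0 in the mean of the rrp6Δ and red1Δ arrays in 65 of the 85 (76.5%), which the choice of units largely fixes, against 12.4% of all units. The first and the last part, split at the middle of the unit, differed by over 1 log2 unit in 7 of the 85 (8.24%, against 4.88% of all units), and the median size of this difference was 0.25 against 0.17. In the mutant channel, the share of probes well above background had a median of 94.8% in rrp6Δ and 81.3% in red1Δ and was as low as 38.0% and 6.0% in single units. With normexp background correction and loess, the median of the 85 units was -1.04 in rrp6Δ and -0.85 in red1Δ.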

How the data were processed

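RNA of 9 mutants was compared with control RNA on 16 two-colour tiling arrays. Spot intensities were extracted by the authors with Agilent Feature Extraction (version 10.7.3.1 in the submitters' processing notes and in the file headers, except rrp6Δ replicate 1 with 10.7.1.1), whose background subtraction, spatial detrending and lowess dye normalization had been applied, and these processed intensity values were used as deposited. The deposited table of the whole series holds log2 ratios of the same arrays with a share of values set to 0, and served as an alternative. Raw spot and background intensities from the authors' files were used for normexp.

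Control spots were left out, and no probe was saturated. The control threshold was set by Otsu's method, and units, ratios and centring follow the definitions given with the data. Unit centres before centring lay between -0.28 and 0.08. All 16 arrays entered a single limma fit (lmFit and eBayes) with the 9 mutants as groups, 7 residual and 4.96 prior degrees of freedom (6.98 for the other strand), tested against 0 or as differences from cid14Δ, two-sided, with Benjamini-Hochberg adjustment over 2540 units and an adjusted p threshold of 0.05. The arrays of a mutant were biological replicates per the methods, except rmn1Δ and mmi1Δ mei4-P572 with 1 array. Values on the other strand needed at least 3 probes. The steps were tested on simulated data.

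Named units were the 10 lowest members, the 3 lowest and 3 highest called, with the same sign on both arrays, in each mutant with 2 arrays that did not choose them, the 3 brightest, dimmest and longest, the 3 on either side of the threshold and the 3 lowest and highest on the other strand in pab2Δ, which gave 31 members. The remaining units called higher in pab2Δ and cid14Δ, and the 3 units with nearly equal values, were named after their values were seen. The members and lists were chosen with earlier results of these data known.

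Alternatives were normexp (offset 50) with loess or the array median, no centring, the median of all tiling probes, the median over probes, leaving out outlier probes, only the 149953 probes that passed the background flag on 2 arrays or more, other thresholds, an absolute log2 ratio of at least 0.5, slide or replicate number as a block, and each array left out in turn. Python 3.11.15, numpy 2.4.6, pandas 2.3.3, scipy 1.17.1, matplotlib 3.10.9, R 4.3.3, limma 3.58.1 and data.table (version 1.17.8) were used.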

Additional observations from a re-analysis of the deposited data

Results flagged for a closer look

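The effects of the mutants on single lowered units were compared with that of cid14Δ, and each difference below passed limma's test of the difference itself over 2540 units. These differences share the 2 cid14Δ arrays and are therefore not independent of each other.

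Named units that were lower in pab2Δ than in cid14Δ, with the log2 difference in brackets, were 2523-2579 (-1.96), 2580-2636 (-1.84), 2621-2651 (-1.82), 3080-3110 (-1.82), 3199-3219 (-2.35), 3202-3212 (-2.53), 3452-3478 (-2.32), 3515-3537 (-4.00), 34657-34671 (-0.74), 43698-43708 (-1.50), 74504-74520 (-0.91), 91141-91151 (-1.17), 103652-103756 (-1.57), 110803-110827 (-4.00), 113580-113618 (-2.34) and 123027-123049 (-1.03). Named units that were higher in pab2Δ than in cid14Δ, with the log2 difference in brackets, were 44029-44055 (1.40), 95307-95319 (2.17) and 95323-95337 (1.75). The adjusted p-values of these differences, from limma, ran from 4.04e-06 to 0.0301. With an array left out, 12 of the 19 calls held throughout. Without cid14Δ replicate 2 those of 2523-2579 (-1.36), 2580-2636 (-1.26), 2621-2651 (-1.49), 91141-91151 (-0.82), 123027-123049 (-0.86) and 34657-34671 (-0.77) were lost. Without cid14Δ replicate 1 those of 34657-34671 (-0.71) and 44029-44055 (1.18) were lost, and all 7 were lost without pab2Δ replicate 1 and all but those of 2523-2579 and 2580-2636 without pab2Δ replicate 2.

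Named units that were lower in mtl1-17 than in cid14Δ, with the log2 difference in brackets, were 3202-3212 (-1.08), 3515-3537 (-1.02), 34657-34671 (-0.96), 43698-43708 (-1.54), 91141-91151 (-1.77), 110803-110827 (-2.99), 113580-113618 (-1.93) and 123027-123049 (-1.07). The adjusted p-values of these differences, from limma, ran from 0.00121 to 0.0401. The call of 43698-43708 held whichever array was left out, and each of the other 7 was lost without at least 1 array of mtl1-17. Those of 3202-3212 (-0.85), 3515-3537 (-0.78), 91141-91151 (-1.43) and 123027-123049 (-0.90) were lost without cid14Δ replicate 2, and those of 3202-3212 (-1.30), 34657-34671 (-0.93) and 123027-123049 (-1.24) without cid14Δ replicate 1. That of 3202-3212 was also lost without either array of red1Δ or sen1Δ. In 113580-113618 the difference was -1.19 without cid14Δ replicate 2.

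Named units that were higher in iss10Δ than in cid14Δ, with the log2 difference in brackets, were 2580-2636 (1.86) and 101532-101628 (1.37). The adjusted p-values of these differences, from limma, ran from 0.0468 to 0.0491. Both calls were lost without either array of cid14Δ, rrp6Δ, red1Δ, pab2Δ, mtl1-17 or sen1Δ. That of 2580-2636 was also lost without iss10Δ replicate 1, at 1.08, and that of 101532-101628 without iss10Δ replicate 2, at 0.94.

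The named unit that was lower in sen1Δ than in cid14Δ was 113580-113618 (-1.34). Named units that were higher in sen1Δ than in cid14Δ, with the log2 difference in brackets, were 2523-2579 (1.91), 2580-2636 (2.13), 2621-2651 (1.83), 2681-2729 (2.75), 3199-3219 (1.42), 3515-3537 (1.14), 72656-72668 (1.15), 95307-95319 (0.95) and 101532-101628 (1.58). The adjusted p-values of these differences, from limma, ran from 0.00987 to 0.0494. All 10 calls were lost without sen1Δ replicate 1, and those of 2621-2651, 3515-3537 and 113580-113618 also without sen1Δ replicate 2. The 9 calls of higher units were lost without cid14Δ replicate 1, and that of 95307-95319 without either array of mtl1-17 as well, with a value of 0.57 without sen1Δ replicate 1. In 113580-113618 the difference was -0.61 without cid14Δ replicate 2 and not called, and -2.07 without cid14Δ replicate 1. That call was also lost without either array of rrp6Δ, red1Δ, pab2Δ or mtl1-17.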

How the results depend on the processing

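The number of lowered units was 85, but 45 with normexp and centring on the array median and 55 with a control threshold 1 log2 unit higher, and between 83 and 97 with an array left out. It was 57 with normexp and loess, 71 and 110 at thresholds of -0.8 and -0.6, 118 without centring and 126 with a control threshold 1 log2 unit lower. Of the 85, 41 were among the 45 and 56 among the 57. A changed control threshold draws other units, of which 45 of the 55 and 64 of the 126 overlapped 1 of the 85 on its strand. No direction of a named unit turned under any alternative, and of 1464 values of 61 called results 1336 kept their call and 128 lost it. Other counts of calls that moved by over 1.5 times were small. In iss10Δ 3 calls became 1 (centring on all tiling probes) and 0 (series table). In sen1Δ 12 became 5 (normexp and loess), 6 (normexp and array median) and 20 (centring on all tiling probes). For iss10Δ against cid14Δ 4 became 2 (both normexp settings, no centring, all tiling probes, median over probes) and 1 (series table). On the other strand cid14Δ gave 28 and sen1Δ 4 with normexp and loess, sen1Δ 8 without centring, and rmn1Δ 1 with normexp and loess or slide as a random block. Centring on all tiling probes moved the median of all units by 0.18 in red1Δ and 0.16 in pab2Δ, and no centring moved that of rrp6Δ by -0.24. The causes were not tested.

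With slide as a random block, mtl1-17 against cid14Δ gave 29 calls and iss10Δ against cid14Δ 11. The estimated correlation of arrays within a slide was 0.51 on the strand of the units and 0.23 on the other strand. The main fit took all arrays as independent. Slide as a fixed term left 1 residual degree of freedom and gave no ratios against 0 and no sen1Δ against cid14Δ; the other differences from cid14Δ gave 44 (pab2Δ), 20 (mtl1-17) and 6 (iss10Δ) calls. With a replicate block, 61 members were called in pab2Δ (55 lower, 6 higher), 31 in mtl1-17, 27 in cid14Δ, 4 in iss10Δ, 18 in mmi1Δ mei4-P572 and 12 in sen1Δ; the block moved no count by over 1.5 times, and deviations of same-numbered arrays of different mutants correlated between -0.57 and 0.70 (median 0.08 over 21 pairs of mutants), so the numbers do not pair the arrays.

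With an array left out, calls ranged from 28 to 68 in pab2Δ, 7 to 42 in mtl1-17, 9 to 34 in cid14Δ, 2 to 10 in iss10Δ, 0 to 4 in rmn1Δ, 15 to 25 in mmi1Δ mei4-P572 and 2 to 17 in sen1Δ. Against cid14Δ they ranged from 22 to 43 (pab2Δ), 4 to 24 (mtl1-17), 1 to 10 (iss10Δ) and 1 to 20 (sen1Δ). On the other strand they ranged from 33 to 60 (pab2Δ), 17 to 46 (mtl1-17), 20 to 47 (cid14Δ), 1 to 5 (iss10Δ), 0 to 5 (rmn1Δ), 9 to 17 (mmi1Δ mei4-P572) and 4 to 20 (sen1Δ). A mutant left with 1 array was assumed to vary like the others. Signal near background limits the ratios of dim units, and dyes were never swapped.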
